A study of Rattus norvegicus with 12 samples.

Results

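The genes described here are 10 genes of brain endothelium and angiogenesis, Pecam1, Cldn5, Flt1, Kdr, Tek, Slco1c1, Abcb1a, Esam, Vegfa and Angpt1, measured in the rat striatum. They were taken by name from the arrays, 9 under the name in the files and Pecam1, which the files call Pecam, through its RefSeq accession. Together they had 13 of the 41012 probes and 22 of the 43379 spots that were not controls. Of the 10 genes, 8 passed the filter on dim probes and were tested among 20400 genes out of 35608 on the array.

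RNA from pooled punches of the dorsal striatum of 12 male rats was hybridised to 12 single-colour Agilent arrays, 1 rat per array, in 4 groups of 3. Every rat carried a lesion of the dopamine neurons on the left, made by injecting 9 µg of 6-OHDA in 4.5 µL into the substantia nigra, so no intact striatum serves as a control here. The 6-OHDA group had the lesion and no further treatment. The HFS group also had an electrode in the subthalamic nucleus on the lesioned side and 5 days of stimulation at 130 Hz, with 80 µs pulses of 60 µA. The DOPA group was given 25 mg/kg L-DOPA with 12.5 mg/kg benserazide at 12 h intervals for 19 days, and the DOPA/HFS group had both. The methods give an electrode only to the stimulated groups, so the implant and the stimulation cannot be told apart. The strain and age are not given in the sources used here.

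Brain endothelial cells line the capillaries and form the blood-brain barrier by closing the gaps between them with tight junctions and by carrying nutrients and expelling foreign compounds through transporters. New vessels grow under vascular endothelial growth factor, made largely outside the endothelium and read by receptor tyrosine kinases on it, while angiopoietins acting on the receptor Tek settle or loosen vessels. In the striatum these cells are a small minority, so their transcripts in a tissue punch come from a small part of the RNA, and fewer endothelial cells and less RNA per cell cannot be told apart.

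RefSeq upstream sequences (GRCr8) were found for 5 of the 10 genes. Those of the barrier gene Cldn5, the receptors Flt1 and Kdr and the ligand Vegfa are shown because the array values below turn on these genes. Each is the 150 bases before a transcription start that RefSeq lists, read 5′ to 3′ on the gene's own strand. Capitals mark GC boxes (GGGCGG), an ETS core (GGAAGT) of the kind read by ETS factors in endothelial cells, and TATA boxes (TATAAA), on either strand.
Cldn5: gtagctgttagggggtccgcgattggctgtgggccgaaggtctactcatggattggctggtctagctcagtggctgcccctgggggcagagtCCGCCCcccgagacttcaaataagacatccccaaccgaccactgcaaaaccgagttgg
Flt1: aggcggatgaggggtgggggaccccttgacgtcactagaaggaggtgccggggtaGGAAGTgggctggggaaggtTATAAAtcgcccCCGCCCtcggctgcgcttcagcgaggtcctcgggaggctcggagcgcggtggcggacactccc
Kdr: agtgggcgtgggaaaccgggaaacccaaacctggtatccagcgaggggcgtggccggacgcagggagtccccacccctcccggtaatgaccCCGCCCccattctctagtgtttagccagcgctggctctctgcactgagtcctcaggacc
Vegfa: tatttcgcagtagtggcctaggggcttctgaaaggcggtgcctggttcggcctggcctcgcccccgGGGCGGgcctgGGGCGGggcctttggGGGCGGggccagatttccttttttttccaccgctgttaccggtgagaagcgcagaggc
These windows lie at chr11:95718599-95718748 on the minus strand, chr12:12333280-12333429, chr14:32571913-32572062 and chr9:22452704-22452853, the last 3 on the plus strand. The Vegfa window shown holds 3 GC boxes and the others 1 each, while the window of a further Vegfa start, at chr9:22460128-22460277 on the plus strand and not shown, holds 0, and 26% of the 33469 windows of this length in the table hold at least 1. The ETS core, present in 13.4% of all windows, and the TATA box, present in 8%, were found among these 4 in that of Flt1. A match of letters is a description of the window and no evidence of binding.

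No gene of the set passed the test in any comparison. To be called, a gene needed an adjusted p (limma, Benjamini-Hochberg) below 0.1 and a fold above 1.2 or below 0.8, and differences are given as log2 fold changes of normalized signal. In HFS, DOPA and DOPA/HFS against 6-OHDA, 0 of the 8 tested members were called, where the shares of all 20400 genes called were 0%, 0.0049% (1 gene) and 0%. At an unadjusted p under 0.05 the members again numbered 0 of 8 in each comparison, beside 2.34%, 2.58% and 2.75% of all genes. The lowest unadjusted p of a member was 0.292 for HFS, 0.106 for DOPA and 0.236 for DOPA/HFS. The 3 comparisons share the 6-OHDA arrays and are not independent of each other.

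How closely a difference was measured varied between genes. The 95% intervals of the differences from 6-OHDA reached 0.30 to each side for Slco1c1 and 0.87 for Pecam1, on the log2 scale. They hold for single genes and do not give the smallest change that the test over all tested genes could call. Car4, a gene outside the set described below, was not called in DOPA/HFS at -0.94, with an interval from -1.30 to -0.57. The residual SD between arrays of a group was 0.12 for Slco1c1, smaller than in all but 5.55% of the tested genes. It was 0.16 for Cldn5, 0.19 for Esam, 0.26 for Tek, 0.32 for Vegfa, 0.34 for Kdr, 0.37 for Flt1 and 0.55 for Pecam1, against a median of 0.27 over all genes. The barrier and junction genes of high signal were therefore measured tightly, and the dimmer Pecam1 and Flt1 loosely.

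**Figure D1:**
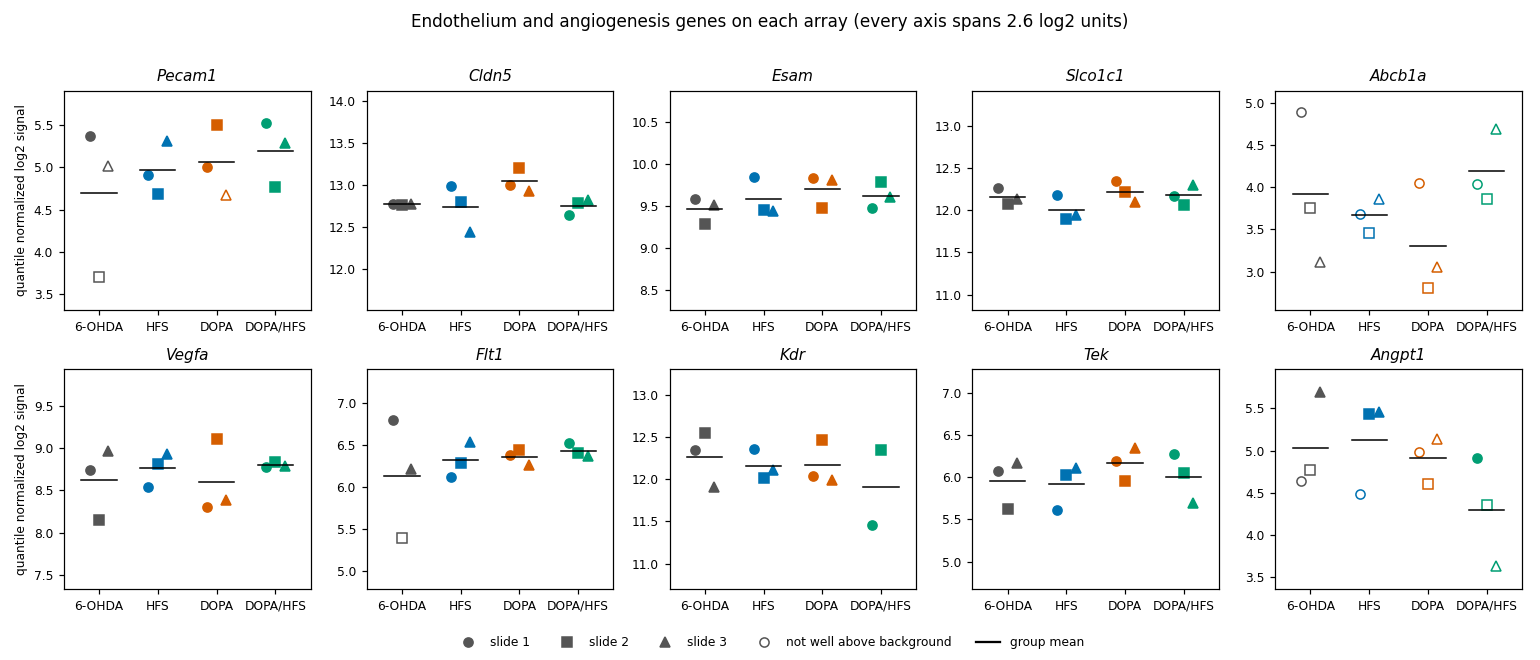
Quantile normalized log2 signal of the 10 genes on each of 12 arrays (vertical axes, each spanning 2.6 log2 units) by group (horizontal axes), with the slide as the symbol and the group mean as a line. The 3 DOPA arrays of Cldn5 lie above the 3 of 6-OHDA, Abcb1a has open symbols (not well above background) throughout, and Pecam1 and Flt1 are lowest on 1 array of the 6-OHDA group.

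Among the junction genes, Cldn5, the main claudin of the endothelial tight junction, was the member nearest to the threshold. Its log2 signal was 12.78, 12.76 and 12.78 in 6-OHDA, 12.99, 12.80 and 12.44 in HFS, 13.00, 13.20 and 12.94 in DOPA and 12.65, 12.78 and 12.83 in DOPA/HFS. All 3 DOPA arrays lay above all 3 6-OHDA arrays, and the arrays of HFS and of DOPA/HFS overlapped with those of 6-OHDA. The DOPA difference was 0.27 (SE 0.16, n = 3 against 3), a fold of 1.21 with a 95% interval from 0.954 to 1.53. It did not pass the test (limma adjusted p = 0.99998). Within slides it was 0.22, 0.44 and 0.16. Cldn5 was the 1 of 8 members whose DOPA arrays did not overlap with 6-OHDA, beside 6.27% of all genes, while 0 of 8 did so in HFS, beside 5.15%, or in DOPA/HFS, beside 5.08%. With L-DOPA and stimulation together the Cldn5 difference from 6-OHDA was -0.02 (SE 0.16), and the HFS by L-DOPA interaction was -0.26 (SE 0.22, limma adjusted p = 0.99996).

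Esam, an adhesion molecule of endothelial junctions, had log2 signals of 9.59, 9.29 and 9.51 in 6-OHDA, 9.85, 9.46 and 9.44 in HFS, 9.83, 9.48 and 9.81 in DOPA and 9.47, 9.78 and 9.61 in DOPA/HFS. The ranges overlapped in every comparison, although the DOPA difference had the same sign on each slide, at 0.24, 0.19 and 0.30. The fitted difference was 0.24 (SE 0.17, limma adjusted p = 0.99998). Pecam1, the platelet and endothelial adhesion molecule CD31, was dim, well above background on 9 of 12 arrays and on 1 of 3 in 6-OHDA. Its signals were 5.38, 3.70 and 5.02 in 6-OHDA, 4.91, 4.68 and 5.31 in HFS, 5.01, 5.50 and 4.68 in DOPA and 5.52, 4.77 and 5.29 in DOPA/HFS. The low 6-OHDA array sets the mean of its group, and its differences from 6-OHDA, 0.27 for HFS, 0.36 for DOPA and 0.50 for DOPA/HFS (SE 0.40 each), became -0.23, -0.14 and -0.002 without it.

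Of the transporters, Slco1c1, which carries thyroxine across the barrier and is also made by astrocytes, was the steadiest member. Its log2 signal was 12.27, 12.08 and 12.13 in 6-OHDA, 12.18, 11.89 and 11.94 in HFS, 12.35, 12.21 and 12.09 in DOPA and 12.17, 12.06 and 12.30 in DOPA/HFS. The differences from 6-OHDA were -0.15, 0.06 and 0.02 (SE 0.14 each), and the intervals ran from -0.46 to 0.15, from -0.25 to 0.36 and from -0.29 to 0.32. Abcb1a, the P-glycoprotein that pumps drugs back into the blood, was below the well-above-background level on each of the 12 arrays, with log2 signals of at most 4.89 that give no order, and entered no test. Its paralog Abcb1b was well above background on 7 of 12 arrays, and its differences were -0.07, 0.12 and 0.33 (SE 0.40 each).

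The ligand Vegfa had 2 probes, which differed in sign in HFS and in DOPA/HFS. On the probe of higher mean signal the log2 values were 8.74, 8.15 and 8.97 in 6-OHDA, 8.54, 8.82 and 8.94 in HFS, 8.31, 9.11 and 8.38 in DOPA and 8.78, 8.83 and 8.79 in DOPA/HFS. These overlapped in every comparison, with differences of 0.15, -0.02 and 0.18 (SE 0.25 each). The other probe, printed as 10 spots, gave 8.80, 8.67 and 8.82 in 6-OHDA, 8.40, 8.71 and 8.59 in HFS, 8.20, 8.76 and 8.65 in DOPA and 8.57, 8.58 and 8.37 in DOPA/HFS. Here the DOPA/HFS arrays lay below the 6-OHDA arrays, and the differences were -0.20, -0.22 and -0.26 (SE 0.17 each), none of which passed the test. No direction can be given for Vegfa in HFS or DOPA/HFS, and in DOPA both probes were below 0 without passing.

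The 10 spots also give the error within an array. Before normalization their SD lay between 0.038 and 0.14 log2 units on 11 arrays. On the DOPA/HFS array 3 the SD was 1.52, since 7 of the 10 spots were marked as outliers by the scanner software, with values from 9.19 to 12.48 against 8.44 to 8.56 for the 3 spots kept. That array had 4175 spots so marked, against 2 to 25 on the others.

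**Figure D2:**
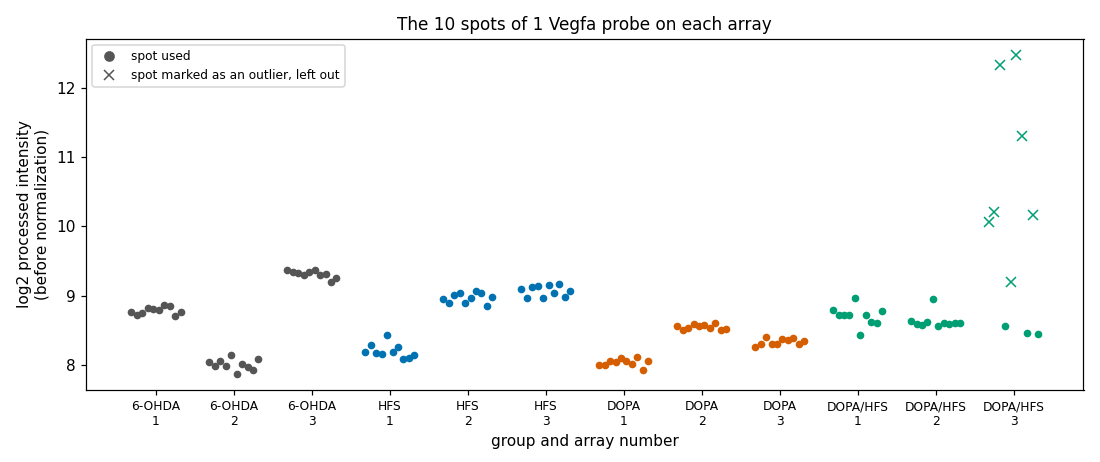
Log2 processed intensity, before normalization (vertical axis), of the 10 spots of a Vegfa probe on each array (horizontal axis), with crosses for spots marked as outliers. On 11 arrays the 10 spots lie close together, and on DOPA/HFS array 3 there are 7 crosses between 9.19 and 12.48.

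Kdr and Flt1 encode the receptors for this ligand, Kdr the main signalling receptor and Flt1 one that also acts as a decoy. The log2 signal of Kdr was 12.35, 12.54 and 11.90 in 6-OHDA, 12.36, 12.01 and 12.10 in HFS, 12.04, 12.47 and 11.99 in DOPA, and 11.46 and 12.35 in DOPA/HFS. The remaining DOPA/HFS array has no value, as the only Kdr spot on it was marked as an outlier and left out. The groups overlapped, and the differences were -0.10 (SE 0.26), -0.10 (SE 0.26) and, with 2 arrays, -0.36 (SE 0.29). With the marked spot kept, Kdr read 13.43 on that array, above its 11 other arrays, and the DOPA/HFS difference became 0.14. With the spot left out, the difference was 0.09 without DOPA/HFS array 1 and -0.80 without array 2, so no direction can be given for Kdr there.

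Flt1 had 2 probes, and the brighter read 6.79, 5.40 and 6.22 in 6-OHDA, 6.12, 6.29 and 6.54 in HFS, 6.38, 6.44 and 6.26 in DOPA and 6.52, 6.41 and 6.37 in DOPA/HFS. The 6-OHDA arrays spanned all the others. The differences of 0.18, 0.22 and 0.30 (SE 0.28 each) changed sign, to -0.19, -0.15 and -0.07, without the lowest 6-OHDA array. Without the highest, the DOPA/HFS difference was 0.63 and the DOPA difference 0.55, the former with a limma adjusted p = 0.986. The dimmer Flt1 probe was well above background on 6 of 12 arrays and on none of DOPA, where it has only a bound. It read 5.04, 4.82 and 5.61 in 6-OHDA, 5.10, 5.33 and 6.29 in HFS, 5.11, 5.18 and 4.55 in DOPA and 6.25, 5.19 and 4.61 in DOPA/HFS. That bound, a DOPA mean set array by array from the lowest signals that counted as well above background, was 5.33. The HFS mean of 5.57 passed it through array 3, as HFS array 1 lay below DOPA arrays 1 and 2. The DOPA/HFS mean of 5.35 includes array 3, which was not well above background. No smallest fold over DOPA can therefore be given for either group, and these differences from DOPA were not tested. The fitted adjusted p of this probe was 0.998 or more in the comparisons of HFS, DOPA and DOPA/HFS with 6-OHDA.

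Tek, the angiopoietin receptor Tie2, gave 6.08, 5.62 and 6.17 in 6-OHDA, 5.61, 6.03 and 6.11 in HFS, 6.20, 5.95 and 6.34 in DOPA and 6.27, 6.05 and 5.70 in DOPA/HFS on its brighter probe. These overlapped, with differences of -0.04, 0.21 and 0.05 (SE 0.21 each). A further Tek probe stayed below that level on all 12 arrays. Angpt1, the ligand that activates Tek, was well above background on 4 of 12 arrays, 2 of HFS, 1 each of 6-OHDA and DOPA/HFS and 0 of DOPA, and was not tested. Its log2 signal was 4.64, 4.77 and 5.69 in 6-OHDA, 4.48, 5.44 and 5.45 in HFS, 4.98, 4.61 and 5.14 in DOPA and 4.91, 4.36 and 3.63 in DOPA/HFS, and the groups overlapped. Angpt2, which mostly opposes it, differed by 0.12, 0.20 and 0.43 (SE 0.29 each) and the related receptor Tie1 by -0.06, 0.18 and -0.11 (SE 0.19 each). A dimmer Tie1 probe gave -0.49, 0.22 and 0.30 (SE 0.40 each), so its probes disagreed in DOPA/HFS.

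**Figure D3:**
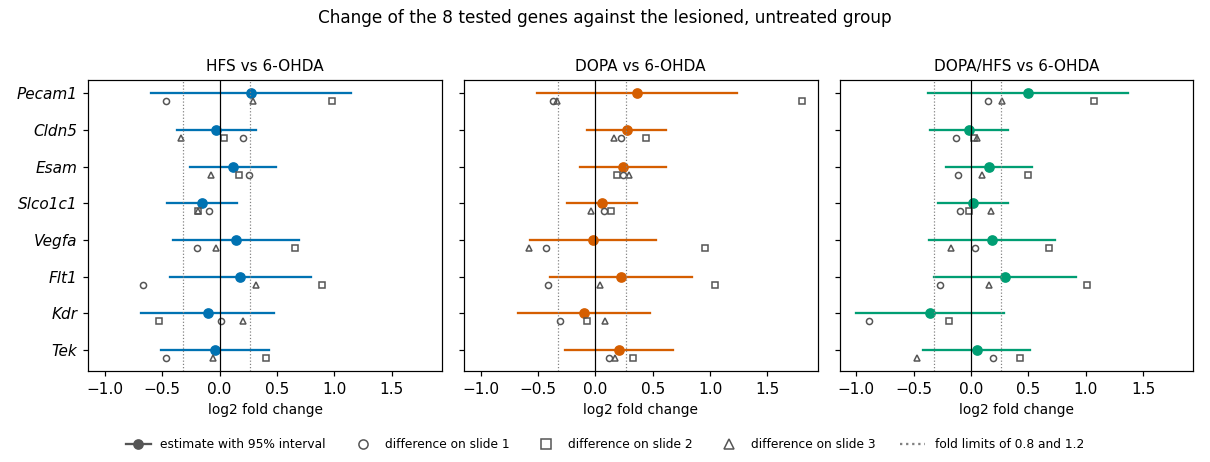
Log2 fold change against 6-OHDA (horizontal axes) of the 8 tested genes (vertical axis) in HFS, DOPA and DOPA/HFS, as limma estimates with 95% intervals, with the difference on each slide as open symbols below. Every interval includes 0, and slide 2 gives the highest of the within-slide values for Pecam1, Flt1 and Vegfa in each panel.

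Over the 8 tested members the median difference from 6-OHDA was 0.04 (HFS), 0.22 (DOPA) and 0.10 (DOPA/HFS), where all genes had medians of 0.01, -0.01 and -0.01. In DOPA 6 of 8 members had a difference above 0. The member medians on slides 1, 2 and 3 were -0.12, 0.38 and 0.06 for DOPA, -0.14, 0.28 and -0.04 for HFS, and -0.11, 0.46 and 0.09 for DOPA/HFS. Slide 2 thus gave the highest median in each comparison. On the 6-OHDA array of that slide, 7 of the 8 members lay below their own median over the 12 arrays, and Pecam1, Flt1, Vegfa and Esam were at their lowest, while Kdr was at its highest. The median deviation there was -0.35, and on the other 11 arrays it lay between -0.09 and 0.20. Leaving out that array turned the medians to -0.14 (HFS), 0.03 (DOPA) and -0.04 (DOPA/HFS). The share of spots well above background on it, 56.2%, was within the range of 50.5% to 63.2% on the others. Before normalization its intensity was the lowest of the 12 arrays for Cldn5 (4826), Slco1c1 (2884) and Esam (392), though not for Kdr (4060). After normalization Cldn5 (12.76) and Slco1c1 (12.08) were not at their lowest on it. Markers of some other cells were also low on this array by mean log2 signal. The lowest value of the 12 arrays was that of 8 astrocyte markers (11.37), 9 projection neuron markers (13.45) and 8 microglia markers (9.80). The summed microglia signal there (32849) was not low. Of the vascular lists, 24 barrier transport genes (mean 7.86), 5 angiopoietin and Tie genes (7.36) and 10 endothelial markers, which share genes with the members (7.50), were also lowest there. For 9 mural cell markers (mean 9.77) and 22 genes of endothelial identity and adhesion (mean 8.67) the mean was not the lowest. The sums of these mural and identity genes, 17012 and 39614, were the highest of the 12 arrays. The means of VEGF ligands and co-receptors, other angiogenic signals and tight junction genes were not the lowest either. The low values were thus neither confined to the members nor shared by all vascular genes. Whether they had a part in the member differences was not tested.

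**Figure D4:**
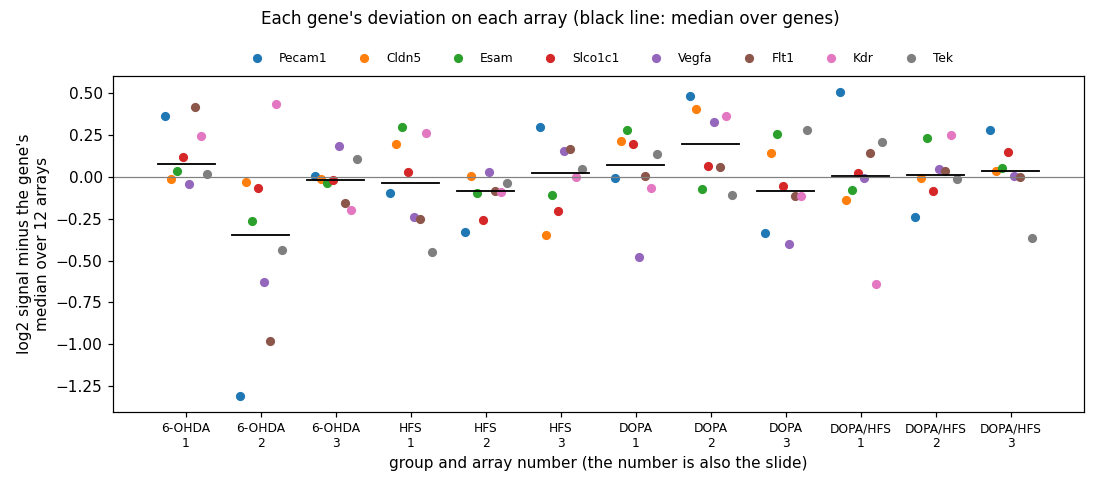
Log2 signal of each of 8 genes minus its median over the 12 arrays (vertical axis) on each array (horizontal axis), with the median over genes as a line. On 6-OHDA array 2 the median is -0.35 and Pecam1 and Flt1 lie lowest, while Kdr lies above 0.

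The main effects, each with 6 arrays on either side, narrowed the intervals to between 0.22 and 0.62 to each side, while those of the interaction reached 0.43 to 1.23. All these comparisons called 0 of 8 members. For the L-DOPA main effect (DOPA and DOPA/HFS against 6-OHDA and HFS) 0.0049% of all genes were called and 2.74% had an unadjusted p under 0.05. For the HFS main effect (HFS and DOPA/HFS against 6-OHDA and DOPA) these shares were 0% and 4.36%, and for the HFS by L-DOPA interaction 0% and 1.98%. No member had an unadjusted p under 0.05 in these either, the lowest being 0.223, 0.172 and 0.255, each for Cldn5. In the L-DOPA main effect 7 of 8 members were above 0, all but Kdr at -0.18, with a median of 0.14, and without the low 6-OHDA array 5 of 8 were above 0, with a median of 0.05.

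Around these members, 107 further genes of endothelial identity, tight junctions, barrier transport and angiogenic signalling were listed, of which 103 were on the array and 83 were tested. None was called. At an unadjusted limma p under 0.05, HFS had 1 of 83 higher and 6 lower (8.43%, beside 2.34% of all genes), DOPA 1 higher and 1 lower (2.41%, beside 2.58%) and DOPA/HFS 1 higher and 2 lower (3.61%, beside 2.75%). Their median differences were -0.004, 0.07 and 0.0006. The HFS main effect had 2 higher and 6 lower (9.64%, beside 4.36%), and the L-DOPA main effect 1 higher and 1 lower (2.41%, beside 2.74%).

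Car4, a carbonic anhydrase on the luminal face of brain capillaries, had the lowest p of these genes in all comparisons with 6-OHDA but one, DOPA, where that of Lsr was lower. Its log2 signal was 11.80, 11.35 and 11.48 in 6-OHDA, 10.97, 10.64 and 10.72 in HFS, 11.02, 11.14 and 11.33 in DOPA and 10.67, 10.44 and 10.70 in DOPA/HFS. The 6 arrays of stimulated rats all lay below the 6 arrays of the others, and the 3 DOPA arrays also lay below those of 6-OHDA. The HFS main effect was -0.66 (SE 0.12), with within-slide values of -0.59, -0.70 and -0.69. By p it ranked 3 of 20400 genes, and it did not pass the test (limma adjusted p = 0.832). Leaving out any 1 array kept the effect between -0.71 and -0.60. The differences from 6-OHDA were -0.76 for HFS, -0.38 for DOPA and -0.94 for DOPA/HFS (SE 0.16 each).

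Other genes with a low unadjusted p did not pass the test either. Foxq1, a forkhead transcription factor of brain endothelium, read 6.72, 6.90 and 7.10 in 6-OHDA, 6.27, 5.74 and 6.56 in HFS, 6.71, 6.43 and 6.51 in DOPA and 6.63, 6.17 and 6.12 in DOPA/HFS. All arrays of the 3 treated groups lay below those of 6-OHDA, with differences of -0.72 for HFS, -0.36 for DOPA and -0.60 for DOPA/HFS (SE 0.22 each). Edn1, the vasoconstrictor endothelin, read 7.31, 6.88 and 6.93 in 6-OHDA, 6.38, 5.81 and 6.92 in HFS, 7.33, 7.35 and 7.36 in DOPA and 6.65, 6.76 and 6.81 in DOPA/HFS. Its HFS main effect was -0.64 (SE 0.17, limma adjusted p = 0.911), and every DOPA array lay above all stimulated arrays. The HFS arrays of Edn1 overlapped with those of 6-OHDA. That difference was -0.67 (SE 0.24), with within-slide values of -0.93, -1.08 and -0.01. Slc38a5, a glutamine carrier, read 6.21, 5.92 and 5.99 in 6-OHDA, 6.30, 7.00 and 6.11 in HFS, 6.11, 5.91 and 5.80 in DOPA and 7.18, 6.38 and 6.61 in DOPA/HFS. It was higher in DOPA/HFS than in 6-OHDA on every array, by 0.69 (SE 0.25), and its HFS main effect was 0.61 (SE 0.18).

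The lower genes in HFS also held Aplnr and Jag1, named here after their values were seen. Aplnr, the apelin receptor, differed by -0.49 (SE 0.17) and Jag1, a Notch ligand, by -1.22 (SE 0.40). In the HFS main effect Erg, an ETS factor of endothelial cells also named after its value was seen, stood at -0.42 (SE 0.18). On the side of L-DOPA, Lsr, a protein of tricellular junctions, was higher in DOPA by 0.40 (SE 0.17), and Cldn12, which the array names RGD1561053, had an L-DOPA main effect of 0.35 (SE 0.14). In the HFS by L-DOPA interaction Cd93, an endothelial lectin, stood at -0.60 (SE 0.23, limma adjusted p = 0.99996), and Slco1a5 at -1.28 (SE 0.55).

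**Figure D5:**
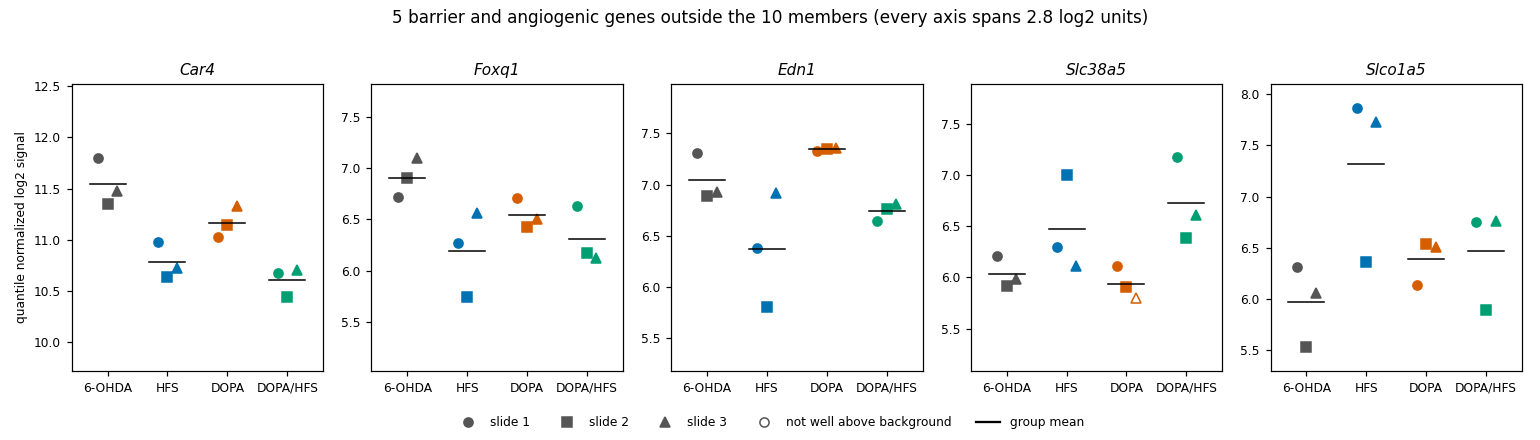
Quantile normalized log2 signal of Car4, Foxq1, Edn1, Slc38a5 and Slco1a5 on each array (vertical axes, each spanning 2.8 log2 units) by group (horizontal axes), with the slide as the symbol. Car4 is lower on all 6 arrays of stimulated rats, and Slco1a5 is highest on 2 HFS arrays.

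The 1 gene of these lists that was higher in HFS at an unadjusted limma p under 0.05, the organic anion carrier Slco1a5, is also made by the choroid plexus. It read 6.31, 5.53 and 6.06 in 6-OHDA, 7.87, 6.36 and 7.73 in HFS, 6.14, 6.54 and 6.51 in DOPA and 6.75, 5.89 and 6.76 in DOPA/HFS. HFS arrays 1 and 3 were the highest, and the difference was 1.35 (SE 0.39, limma adjusted p = 0.998). Of 14 choroid plexus markers on the array, 8 were tested. All 8 were higher in HFS at an unadjusted limma p under 0.05, beside 2.34% of all genes, with a median of 2.88. The list was chosen with earlier results of these data known. Clic6 and Kcnj13 were well above background on only 5 arrays each, so high HFS arrays may have carried such markers past the filter. The summed signal of 7 of the 8 tested markers was 94995, 9868 and 56536 on the HFS arrays, against 3266 to 6158 in 6-OHDA, 3542 to 20287 in DOPA and 4137 to 5510 in DOPA/HFS. Their part in the Slco1a5 result was not tested. Plvap, which marks the fenestrated capillaries found in choroid plexus, was well above background on no array.

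Other genes by which vessels are known showed no called difference. Vegfb, a further ligand of Flt1, differed from 6-OHDA by 0.04, 0.02 and -0.10 (SE 0.15 each), and the placental growth factor Pgf by -0.09, -0.31 and 0.36 (SE 0.28 each). Pgf was dim, well above background on 9 of 12 arrays. Its DOPA/HFS arrays lay narrowly above those of 6-OHDA, the lowest at 5.58 against a highest of 5.56. Of all genes, 5.08% did not overlap in that comparison. The co-receptor Nrp1, well above background on 7 arrays, differed by 0.43, 0.02 and -0.32 (SE 0.42 each). Cdh5, the cadherin of endothelial junctions, was well above background on 7 of 12 arrays and differed by -0.21, 0.15 and -0.62 (SE 0.47 each). The von Willebrand factor gene Vwf stood at -0.06, -0.09 and 0.19, the last with 2 DOPA/HFS arrays. The junction genes Ocln and Tjp1 differed by -0.34, 0.10 and -0.32 (SE 0.26 each) and by -0.17, -0.06 and 0.19 (also with 2 DOPA/HFS arrays). A dimmer Ocln probe gave -0.22, 0.16 and 0.01 (SE 0.22 each), so its probes disagreed in DOPA/HFS. A further Tjp1 probe gave -0.21, 0.02 and -0.005 and another -0.08, 0.01 and 0.22, so the Tjp1 probes differed in sign in DOPA and DOPA/HFS. The glucose carrier Slc2a1 was at -0.13, 0.08 and -0.15 (SE 0.19 each) and the efflux pump Abcg2 at 0.07, 0.49 and 0.36 (SE 0.28 each).

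By list, none of the tested genes was called among 4 VEGF ligands and co-receptors, 5 genes of the angiopoietin and Tie system, 14 other angiogenic signals, 24 genes of endothelial identity and adhesion, 9 tight junction genes, 27 barrier transport genes and 16 genes induced by hypoxia. The medians of the hypoxia list, a usual driver of Vegfa, were 0.04 for HFS, -0.06 for DOPA and -0.001 for DOPA/HFS, with 0 of 16 at an unadjusted limma p under 0.05 in each.

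Markers of the cells in and around vessels were read as a check of the tissue. The summed signal of 10 endothelial markers, which share genes with those described, ran from 12413 to 13490 in 6-OHDA, 10908 to 14417 in HFS, 13822 to 15635 in DOPA and 12507 to 13714 in DOPA/HFS. The DOPA sums lay above those of 6-OHDA, but the bright Cldn5 and Slco1c1 weigh most in them, and Kdr and Vwf, each without a value on 1 array, are not in them. The mean log2 signal of the same 10 markers, in which each counts alike, overlapped, at 7.98, 8.02 and 7.89 in DOPA and 7.93, 7.50 and 7.84 in 6-OHDA. Of the 14 endothelial markers, 7 were well above background on all 12 arrays. For 9 mural cell markers the ranges were 13313 to 17012, 13152 to 16469, 14598 to 15921 and 12427 to 15245, which overlap. Leptomeningeal markers summed to 8565 to 15903 in HFS against 6272 to 8142 in 6-OHDA, without overlap. Their sums were 5611.4 to 7944.5 in DOPA and 4211 to 10269 in DOPA/HFS, and the DOPA/HFS range overlapped with that of HFS. The sums of 5 blood cell markers overlapped between groups. Of 10 markers of striatal projection neurons, 9 were well above background on every array.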

How the data were processed

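The members and gene lists were chosen with earlier results of these data known. Groups and numbers came from the sample labels. The authors deposited scanner files of Agilent Feature Extraction 9.1 (per the labels), whose intensity values were background-corrected within the array but not normalized between arrays. They also deposited a table of log2 values, which their methods describe as quantile normalized. Each of its columns has a median of 7.21, and its rank correlation with the mean spot intensity was 0.992 to 0.997, so its scale is log2 with no centring by gene. It served as an alternative. Control spots (1639) and outlier spots were left out. Processed intensities were taken to log2, quantile normalized, averaged over the spots of a probe, and a probe was kept if the share of arrays on which it was well above background reached 0.4. The probe of highest mean signal stood for a gene, and 10735 probes were named through RefSeq (GRCr8).

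All 12 arrays were fitted with limma 3.58.1 in R 4.3.3 (lmFit, eBayes; data.table version 1.17.8, jsonlite 2.0.0), with contrasts for each treatment against 6-OHDA, both main effects and the interaction. The study's methods used SAM and the Wilcoxon test with the same fold limits, and the common fit was used here to share 1 estimate of spread. An exact test of 3 against 3 arrays cannot go below p = 0.1. The sample number is also the slide and the scan, each holding 1 array of every group, and the position on the slide goes with the group, so position and treatment cannot be told apart. All members, their probes, the 3 listed genes of lowest p per comparison, any called gene and 12 fixed genes were named, except 1 gene that is not reported here. Precision is limited by how many arrays there are. The fit was tested on simulated data, and figures were drawn with matplotlib. Alternatives were the 75th percentile in place of quantiles, the deposited log2 table, a normexp correction (offset 50), other filters and probe rules, outlier spots kept, a replicate block, fits of only the groups compared, other thresholds and leaving out each array.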

Additional observations from a re-analysis of the deposited data

How the results depend on the processing

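No member was called in any of the 6 comparisons under any of 24 alternatives, 12 that kept every array and 12 that left out 1 (lowest and highest count 0). Over all genes the count called went from 1 to 13 in DOPA and from 1 to 28 in the L-DOPA main effect without DOPA/HFS replicate 1, and from 0 to 3 in HFS with no filter on dim probes. With every array kept, 33 of 408 member fold changes changed sign and none had an unadjusted p under 0.05. The 9 that moved by more than the residual SD belonged to Kdr, Vegfa and Esam. In DOPA/HFS, Vegfa went from 0.18 to -0.22 under the normexp correction. With outlier spots kept, its HFS value went from 0.15 to -0.19 because the Vegfa probe printed as 10 spots then stood for the gene. DOPA/HFS array 3, with marked Vegfa spots, raised the mean of that probe above that of the other. No member spot was marked on the HFS or 6-OHDA arrays, so this was a change of probe. Without 1 array, 54 of 576 changed sign, 20 of them without 6-OHDA replicate 2, and 3 had an unadjusted p under 0.05: Flt1 in DOPA and DOPA/HFS without 6-OHDA replicate 1, and Kdr in DOPA/HFS without DOPA/HFS replicate 2. Kdr in DOPA/HFS read 0.09 without DOPA/HFS replicate 1 and -0.80 without replicate 2, the third array having no value. With the replicate block, 0 members were called, none changed sign, and the lowest member p was 0.0991. Same-numbered arrays correlated over 0.1 in 10 of 18 pairs (-0.29 to 0.48), beside a median of -0.07 over the other pairs. The labels do not say whether the numbers pair the rats, so the block was used only as an alternative. It changed no call of a member, but over all genes the 1 called in DOPA became 0. Of the genes outside the set, Car4 kept an HFS main effect of -0.63 to -0.72 under other scalings, background corrections, the deposited table and outlier spots kept, with an adjusted p of 0.744 to 0.923. Against 6-OHDA, HFS values under normexp were -0.35 for Edn1, -0.36 for Foxq1 and 0.70 for Slco1a5, smaller than with quantile normalized processed signals.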
